A study of Mus musculus with 4 samples.

Results

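The variable (V) segments of the immunoglobulin kappa light chain were described in RNA of Lin– (lineage-negative) cells of mouse bone marrow, which is marrow depleted of cells that carry surface markers of mature blood cells. The members were chosen by symbol and by measured level, as all genes whose symbol starts with Igkv and whose mean over the 4 libraries was at least 10 normalized counts (reads scaled by 1 size factor per library). That gave 80 of the 16673 genes in the deposited table. The minimum of 10 removed no Igkv row: the lowest members, Igkv4-51 and Igkv9-129, had means of 11.2 and 11.9, and no row lay below. The rule read only the level over all 4 libraries and not the difference between groups. Each of the 4 libraries came from 1 mouse of 2 months. The control mice (n = 2) carried floxed Tet3 alleles only (Tet3F/F). The cKO mice (n = 2) carried the same floxed alleles and a Cre recombinase at Tie2, a gene active in endothelial and blood-forming cells (Tie2+/cre; Tet3F/F). Tet3 encodes an enzyme that oxidises 5-methylcytosine in DNA, and the comparison asks how transcripts differ when it is targeted. The floxed exons were not named in the labels.

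A kappa chain gene is built in a developing B cell when the RAG recombinase joins 1 of many V segments to 1 of a few joining (J) segments upstream of the single constant gene, Igkc. A B cell normally expresses 1 kappa rearrangement, so the segments read in a population bear on which light chains its B cells and plasma cells carry. Counts over V segments weight each cell by its kappa mRNA, and whether the reads came from joined V and J segments was not tested. Plasma cells, many of which live in the marrow, contain very large amounts of immunoglobulin mRNA. Segments in the same orientation as the J and constant genes join by deletion of the DNA between, and those in the opposite orientation join by inversion.

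All 80 members were matched by symbol to GENCODE M21, in which they lie on chromosome 6 and are annotated as coding V genes. That annotation lists 100 coding and 60 pseudogene Igkv segments, so 20 coding segments had no row in the table. It uses build GRCm38, which is not the build of the reads, and no coordinates are given. The members belonged to 18 families, named by the number before the hyphen, and 5 families had 1 member.

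The likeness of the segments bears on every count below, because reads can be shared between near-identical copies. Family 6 held the only segment that passed the test between groups, Igkv6-15. Its V exon (the coding exon after the leader) is shown with those of its closest measured relative, Igkv6-13, and of Igkv6-23, the most used segment in 1 library. The sequences are from GENCODE M21 transcripts, 5′ to 3′, and capitals mark bases that differ from Igkv6-15.
Igkv6-15: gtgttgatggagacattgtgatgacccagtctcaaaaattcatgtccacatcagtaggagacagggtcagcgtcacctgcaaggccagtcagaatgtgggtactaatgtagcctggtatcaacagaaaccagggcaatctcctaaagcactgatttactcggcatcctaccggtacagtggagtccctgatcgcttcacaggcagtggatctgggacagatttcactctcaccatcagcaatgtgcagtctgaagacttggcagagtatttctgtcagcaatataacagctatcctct
Igkv6-13: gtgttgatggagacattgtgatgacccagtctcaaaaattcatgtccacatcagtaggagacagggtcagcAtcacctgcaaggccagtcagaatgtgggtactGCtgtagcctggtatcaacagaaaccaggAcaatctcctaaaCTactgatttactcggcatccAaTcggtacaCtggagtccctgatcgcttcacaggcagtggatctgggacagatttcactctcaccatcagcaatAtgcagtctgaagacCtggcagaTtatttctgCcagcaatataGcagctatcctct
Igkv6-23: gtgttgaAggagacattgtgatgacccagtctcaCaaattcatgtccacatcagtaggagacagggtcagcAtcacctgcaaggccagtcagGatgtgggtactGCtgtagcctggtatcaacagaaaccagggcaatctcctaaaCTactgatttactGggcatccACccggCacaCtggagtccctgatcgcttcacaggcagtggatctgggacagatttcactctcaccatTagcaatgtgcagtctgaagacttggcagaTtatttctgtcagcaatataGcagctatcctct
Igkv6-13 differed from Igkv6-15 at 14 of 298 bases (95.3% identity) and Igkv6-23 at 16 (94.6%). Across the members, the nearest of the 160 annotated segments had a median identity of 95% over the V exon (75.2% to 99.0%), and for 77 members it belonged to the same family. The longest identical stretch shared with another segment had a median of 82 bases. It reached the labelled read length of 150 bases in 7 members, and the longest, 193 bases, joined the pairs Igkv13-84 with Igkv13-85 and Igkv5-43 with Igkv5-45. For Igkv6-15 it was 71 bases, shared with Igkv6-14 and, in the sequences above, with Igkv6-13. The labels do not state how reads that match several segments were handled.

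The 3′ ends of the V exons of the 10 members with the highest mean level show what these segments contribute to the end of the V region, at the junction with J. Capitals mark the last in-frame cysteine codon, after which the V-encoded part of the third complementarity-determining region begins.
Igkv6-15: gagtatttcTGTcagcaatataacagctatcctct
Igkv10-96: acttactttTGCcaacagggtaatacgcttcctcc
Igkv1-117: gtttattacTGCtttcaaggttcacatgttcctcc
Igkv6-23: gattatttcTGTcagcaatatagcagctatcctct
Igkv1-110: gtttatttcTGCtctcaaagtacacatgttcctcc
Igkv14-111: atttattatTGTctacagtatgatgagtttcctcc
Igkv6-32: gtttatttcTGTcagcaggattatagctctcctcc
Igkv15-103: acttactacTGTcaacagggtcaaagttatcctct
Igkv6-17: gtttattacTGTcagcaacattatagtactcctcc
Igkv8-30: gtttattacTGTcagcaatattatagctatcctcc
In all 10 the codon starts 26 bases before the end of the exon.

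Several facts of the 4 libraries touch every comparison here. Reads counted to genes ran from 28845037 to 46673855 per library, above the labelled output per sample in the control libraries. Whether a count is a read or a read pair is not stated. Most recovered counts of the segments were even numbers, such as 1108, 8, 1190 and 554 for Igkv1-110. Whether both mates of a pair were counted apart was not tested. If they were, the counts below hold fewer fragments than reads and the intervals are too narrow. Tet3 itself was not lower in the libraries labelled cKO (5056 and 6593 against 6400 and 5084 normalized counts), and a count over the whole gene does not test the floxed exons. Xist was at 5.54 and 9.57 normalized counts in control and at 87442 and 48951 in cKO, and Ddx3y, a Y-linked gene, at 3158 and 3672 against 0 and 0, so sex and genotype cannot be told apart. Control replicate 2 stood apart, with 8.16% of its reads from mitochondrial protein genes against 0.989% to 1.26% in the other libraries, and with 7 erythroid genes summing to 60287 normalized counts against 18129 in control replicate 1 and 24887 and 4160 in the cKO libraries. The main results are therefore given with and without it. The stem and progenitor markers Kit, Cd34 and Flt3 were present in every library, at 4999 normalized counts or more, and 0 of 6 stem and progenitor genes passed the test. Over all tested genes 0.0723% passed in either direction, so 0 in a short list, here and below, says little about its genes. In 4 of the 6 both cKO libraries lay above both control libraries, against 19.2% of all tested genes. Of 11 genes listed as lineage depletion targets, 10 had rows and 0 passed. Both cKO libraries lay above both control libraries in 6 of the 10 and below in 0 (19.2% and 19.5% of all tested genes), and 2 had log2 fold changes below 0. Klrb1c had 98.8 and 112 normalized counts in control and 625 and 454 in cKO, and Cd3g 48.9 and 140 against 523 and 420.

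Kappa V transcripts were more abundant in both libraries labelled cKO than in either labelled control. The 80 segments summed to 15770 and 3171 normalized counts in control replicates 1 and 2 and to 28003 and 25942 in cKO replicates 1 and 2. The control libraries thus differed from each other by more than control replicate 1 differed from the libraries labelled cKO. The group means were 9471 ± 8909 and 26972 ± 1457 (SD, n = 2), 2.85-fold higher in cKO, and 1.71-fold higher when control replicate 1 was the only control. The exact two-sided permutation test gave p = 0.33, the smallest that 2 against 2 allows. As a share of all gene reads the sum was 0.0436% and 0.00852% in the control libraries and 0.0832% and 0.0752% in the cKO libraries, with Wilson 95% intervals of 0.0429% to 0.0442%, 0.00826% to 0.00879%, 0.0821% to 0.0842% and 0.0742% to 0.0762%. These and all later intervals cover counting error only, since reads are not independent molecules. In bulk RNA, fewer kappa-expressing cells and less kappa mRNA per cell cannot be told apart.

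**Figure D1:**
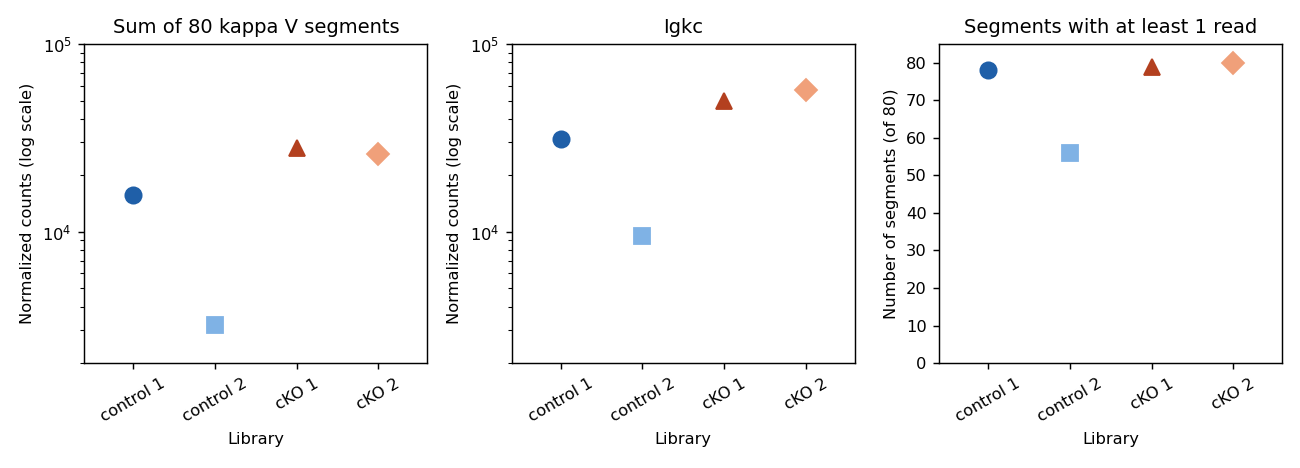
Summed normalized counts of the 80 kappa V segments (left) and normalized counts of Igkc (middle), both on log axes, and the number of segments with at least 1 read (right), 1 point per library. Control replicate 2 is lowest in all 3 panels, with 3171 and 9510 normalized counts and 56 segments.

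The constant gene was likewise higher in both cKO libraries. Igkc, shared by all kappa chains, was at 31050 and 9510 normalized counts in the control libraries and at 49421 and 57230 in the cKO libraries. Its log2 fold change was 1.63 (SE 0.49), and it did not pass the test (limma with Benjamini-Hochberg adjusted p = 0.76). Without control replicate 2 it was 0.78. The V sum divided by Igkc was 0.508 and 0.333 in the control libraries and 0.567 and 0.453 in the cKO libraries, so the groups overlapped (exact permutation p = 0.67). These ratios are of reads and are not corrected for gene length. The joining segments Igkj1, Igkj2, Igkj3 and Igkj5 had rows, at 37.4 normalized counts or less in every library. None of the 5 kappa constant and joining genes with rows passed.

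The range of levels among members was wide. Their means over the 4 libraries ran from 11.2 to 1356 normalized counts, with a median of 175. Within a library the median segment had 140 and 8.77 normalized counts in control replicates 1 and 2 and 225 and 218 in cKO replicates 1 and 2. Control replicate 2 was the lowest of the 4 libraries for 69 of the 80 segments and the highest for 2. Those 2, Igkv11-125 and Igkv4-79, are named because their values stood out.

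**Figure D2:**
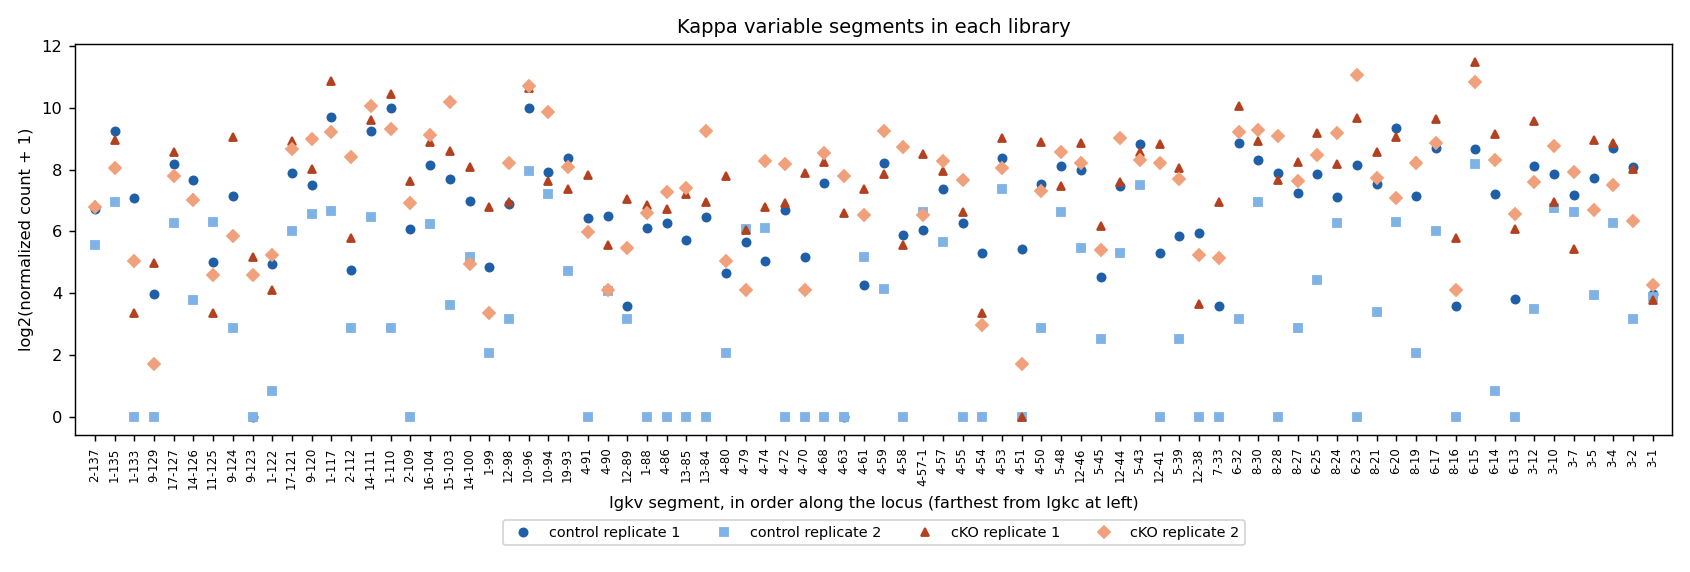
Log2(normalized count + 1) of each of the 80 segments in each library, ordered along the locus with the segments farthest from Igkc at left. The squares of control replicate 2 lie lowest for 69 segments and at 0 for 24.

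Control replicate 2 also lacked many segments altogether. It had 0 reads for 24 of the 80 members, against 2 in control replicate 1, 1 in cKO replicate 1 and 0 in cKO replicate 2. For 21 of the 24, all other libraries had reads. Control replicate 2 had 3976 kappa V reads and the other libraries 17081 to 23988. Thinned to 3976 reads, the other libraries would show 77.7 to 77.9 segments and control replicate 2 showed 56. The thinning treats reads as independent molecules, so it covers depth only under that assumption. The part of RNA quality in the zeros was not tested. A count of 0 in control replicate 2 allows a share of up to 0.0755% of its kappa V reads. Igkv6-23, for example, took 1.78% of the kappa V total in control replicate 1 and had no read in control replicate 2. Igkv1-110, the most used segment in control replicate 1 at 6.49%, took 0.201% in control replicate 2.

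Igkv6-15 was the only member that passed the test between groups. It was at 409 and 288 normalized counts in the control libraries and at 2887 and 1839 in the cKO libraries, and the groups did not overlap. It rose from 348 ± 85.6 to 2363 ± 741 (SD, n = 2), which is 2.74 on the log2 scale (SE 0.30, with a 95% interval from 2.05 to 3.44; limma with Benjamini-Hochberg adjusted p = 0.041), higher in 2 of 2 cKO libraries. All log2 fold changes were taken as cKO minus control after adding 1 to each normalized count, which shrinks those of low segments. They are differences of mean logs, so 1 control library with few reads can make them larger than a ratio of mean levels. Their median over the members was 2.00, and 1.62 with edgeR, which compares mean levels. Over all 16598 genes tested, 0.0723% passed in either direction and 0.0301% passed as higher, and among members 1 of 80 was higher and 0 were lower. The call ended without control replicate 2 (log2 fold change 2.49, limma with Benjamini-Hochberg adjusted p = 0.057), and over all alternatives the adjusted p ran from 1.39e-13 with DESeq2 to 0.65 without a variance trend.

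As a share of the kappa V total, Igkv6-15 did not separate the groups. It made up 2.59% and 9.08% in the control libraries and 10.3% and 7.09% in the cKO libraries. It was the most used segment in control replicate 2 and in cKO replicate 1. Control replicate 1 was the library with the low share, and control replicate 2 lay between the cKO libraries.

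The segments with the highest fold changes had few or no reads in control replicate 2. Igkv4-63 had 0 reads in both control libraries and 82 and 194 reads (95.7 and 223 normalized counts) in the cKO libraries. Against a floor of 3 reads in each control library it was at least 61.7-fold higher (limma with Benjamini-Hochberg adjusted p = 0.10, 0.051 without control replicate 2, range 4.35e-07 to 0.59 over the alternatives), so it did not pass. Igkv9-123 was the other member with 0 reads in both control libraries, with 30 and 20 reads in the cKO libraries, at least 11.2-fold higher. Igkv9-123 lies outside the naming rule and is named for that count. Igkv4-63 and Igkv9-123 reached the minimum mean through the cKO libraries alone, so a higher cKO level was fixed by their inclusion. The floor covers counting error only and not the spread between mice.

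Igkv6-23 was absent from 1 library and the most used segment of another. It had 281 and 0 normalized counts in the control libraries and 812 and 2156 in the cKO libraries, and made up 8.31% of the total in cKO replicate 2. Its log2 fold change of 6.30 (SE 2.17) did not pass, was 2.23 without control replicate 2 and was 3.43 with edgeR, which compares mean levels. Igkv12-41 had 38.8, 0, 458 and 299 normalized counts in the order control replicates 1 and 2, cKO replicates 1 and 2. Igkv13-84 had 86.8, 0, 124 and 612 in that order, and Igkv6-14 had 148, 0.798, 570 and 321. In all of these, both cKO libraries lay above both control libraries, and none passed the test (limma with Benjamini-Hochberg adjusted p = 0.71 to 0.76). Without control replicate 2 the log2 fold changes of Igkv12-41, Igkv13-84 and Igkv6-14 were 3.22, 1.66 and 1.53. With all 4 libraries they were 5.88, 4.88 and 4.71.

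Other highly expressed members showed the same order of libraries in part. Igkv10-96 was the only segment among the 10 most used in every library, at 1016 and 247 normalized counts in the control and 1603 and 1659 in the cKO libraries. Igkv14-111 had 608, 87.7, 773 and 1073, and Igkv8-30 had 316, 124, 490 and 627, with both cKO libraries above both control libraries. Igkv15-103 had 207, 11.2, 392 and 1160, Igkv6-32 had 463, 7.98, 1060 and 602, and Igkv6-17 had 415, 63.8, 790 and 461, again without overlap. Igkv1-117 (838, 99.7, 1888 and 600) and Igkv1-110 (1023, 6.38, 1389 and 636) overlapped, since cKO replicate 2 lay below control replicate 1. None of these 8 passed.

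A smaller set of segments did not share the higher level. Among members with a mean of at least 50, the 5 with the lowest fold changes were Igkv3-7, Igkv6-20, Igkv5-43, Igkv1-135 and Igkv14-100, with log2 fold changes of -0.22 to 0.43. Igkv6-20 had 657 and 78.2 normalized counts in the control libraries and 535 and 136 in the cKO libraries. Igkv1-135 had 604, 124, 502 and 264, and Igkv5-43 had 458, 182, 379 and 315. In these 3 segments control replicate 1 was the highest library and control replicate 2 the lowest, so all overlapped. Igkv11-125 was the only member with both cKO libraries below both control libraries (31.4 and 79.0 against 9.34 and 23.0 normalized counts), and it did not pass.

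Counted over the members, 75 had a log2 fold change above 0 and 5 below, where 50.8% of all tested genes were above 0. In 43 both cKO libraries lay above both control libraries, against 19.2% of all tested genes, in 1 they lay below, against 19.5%, and in 36 the groups overlapped. The median log2 fold change was 2.00 over the members and 0.01 over all tested genes, and it was 2.00 also with the 2 segments absent from the control libraries placed at their bounds. By limma an unadjusted p under 0.05 was found for 34 members, all higher, against 3.49% of all tested genes higher and 6.1% in either direction. The table had been filtered on low values before deposit, so a segment expressed mainly in 1 group could enter through that group alone, and the members share cells and sequence. These counts therefore describe the table and are no test of the segments as a set.

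The size of these differences depended on control replicate 2. Without it the median log2 fold change of the members was 0.68, 60 were above 0 (48.2% of all tested genes) and 20 below, and 0 passed by limma (0.0602% of all tested genes passed). Against control replicate 1 alone, both cKO libraries were higher in 44 members (34.6% of all tested genes) and lower in 12 (36.9%). Without control replicate 1 the median was 3.62, and 44 members passed as higher (1.4% of all tested genes passed as higher and 2.37% in either direction), and the lone control library was then assumed to vary like the others. edgeR on the recovered reads gave a median of 1.62 and called 1 member (0.0723% of all tested genes called) and DESeq2 called 6, all higher (0.645% called, 0.428% as higher). The 6 were Igkv6-15, Igkv4-63, Igkv9-123, Igkv2-112, Igkv12-89 and Igkv8-24, of which the last 4 lie outside the naming rule. Igkv4-63 and Igkv9-123, with no control reads, had entered through the cKO libraries alone.

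**Figure D3:**
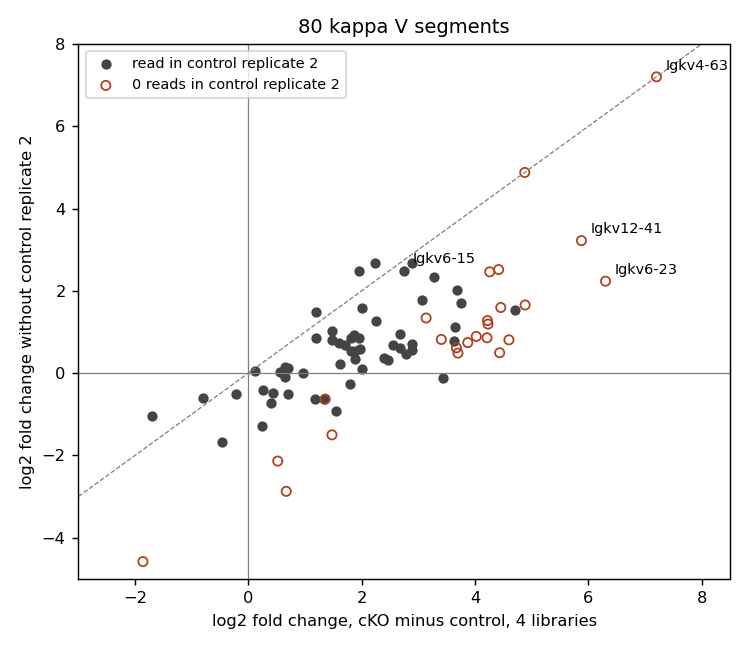
Log2 fold change (cKO minus control) of each of the 80 segments with all 4 libraries (horizontal axis) and without control replicate 2 (vertical axis); the dashed line marks equal values and open circles mark the 24 segments with 0 reads in control replicate 2. Most points lie below the dashed line, and 20 of 80 lie below 0 without that library.

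Usage by family was broad in every library. The 6 families with the largest mean shares (6, 4, 1, 10, 3 and 8, 51 segments in all) held 68.0% to 75.1% of the kappa V total. Family 6, with 8 of the 80 segments, made up 16.6% and 14.5% in the control libraries and 26.1% and 23.0% in the cKO libraries. The means were 15.5% ± 1.501 and 24.5% ± 2.18 (SD, n = 2), a difference of 8.98 percentage points that was larger than the spread within either group (exact permutation p = 0.33, the smallest possible). The groups did not overlap, and Wilson half-widths for family shares were at most 1.16 percentage points. The segment with the highest share differed between the cKO mice: Igkv6-15 took 10.3% in cKO replicate 1 and Igkv6-23 took 8.31% in cKO replicate 2. Without Igkv6-15 the family share was 14.0% and 5.41% in the control libraries and 15.8% and 15.9% in the cKO libraries, still without overlap. Without Igkv6-23 it was 14.8% and 14.5% against 23.2% and 14.7%, and the groups overlapped. Without both of these the family share was 12.2% and 5.41% in the control libraries and 12.9% and 7.58% in the cKO libraries, which also overlapped.

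The largest family by number, family 4 with 20 segments, made up 12.4% and 16.6% in the control libraries and 13.2% and 14.1% in the cKO libraries, and the groups overlapped. Family 1, with 7 segments, varied between mice of each group, at 17.3% and 7.39% in control and 14.4% and 6.46% in cKO. Family 10, with only Igkv10-94 and Igkv10-96, made up 7.97%, 12.4%, 6.44% and 10.02% in the same order of libraries, from 2 of the 80 segments. Family 3 was lower in both cKO libraries (9.92% and 10.4% against 7.74% and 4.86%), and family 8 overlapped (7.45% and 6.94% against 7.25% and 9.58%). Of the 18 families, 9 had shares that did not overlap between the groups, 5 higher and 4 lower in cKO. For comparison, 38.7% of all tested genes did not overlap in normalized counts. Shares sum to 100% in a library, so a higher share of 1 family lowers the others.

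**Figure D4:**
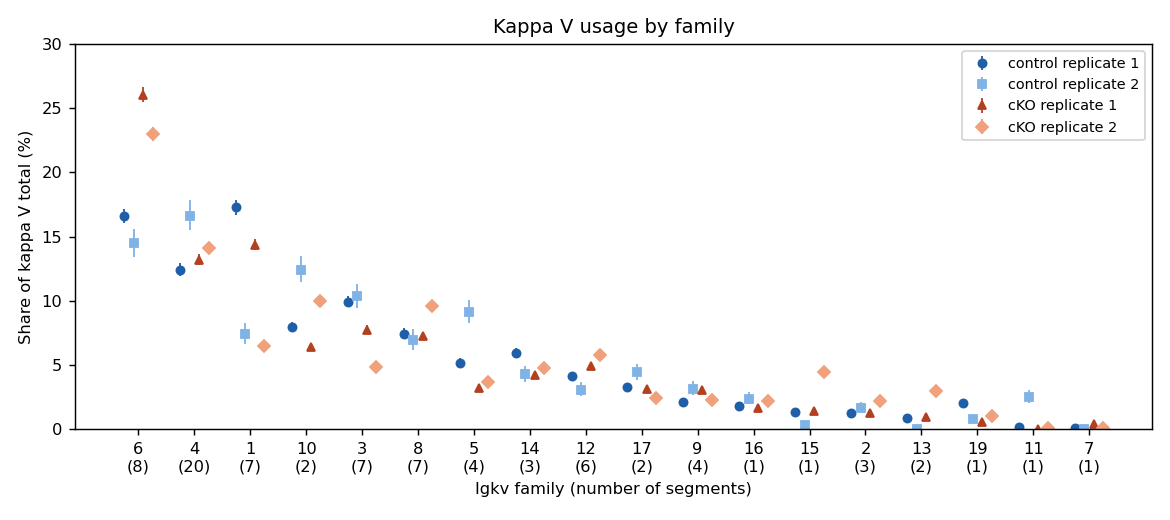
Share of the kappa V total (%) held by each Igkv family in each library, families ordered by mean share with their number of segments in brackets; bars are Wilson 95% intervals for counting error. Family 6 lies at 26.1% and 23.0% in the cKO libraries and at 16.6% and 14.5% in the control libraries.

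No library was dominated by 1 segment. The most used segment held 6.49% (Wilson 95% interval 6.13% to 6.87%) of the kappa V total in control replicate 1, 9.08% (8.23% to 10.01%) in control replicate 2, 10.3% (9.93% to 10.7%) in cKO replicate 1 and 8.31% (7.96% to 8.68%) in cKO replicate 2. The 10 most used segments held 41.2%, 50%, 44.8% and 43.6% in the same order. The inverse Simpson index, the number of equally used segments that would give the same concentration, was 37.2 and 25.7 in the control libraries and 30.5 and 32.2 in the cKO libraries. The cKO values lay between the control values, and the means were 31.5 ± 8.08 and 31.4 ± 1.21 (SD, n = 2; exact permutation p = 1). With 2 libraries per group the test could not have reached 0.05.

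**Figure D5:**
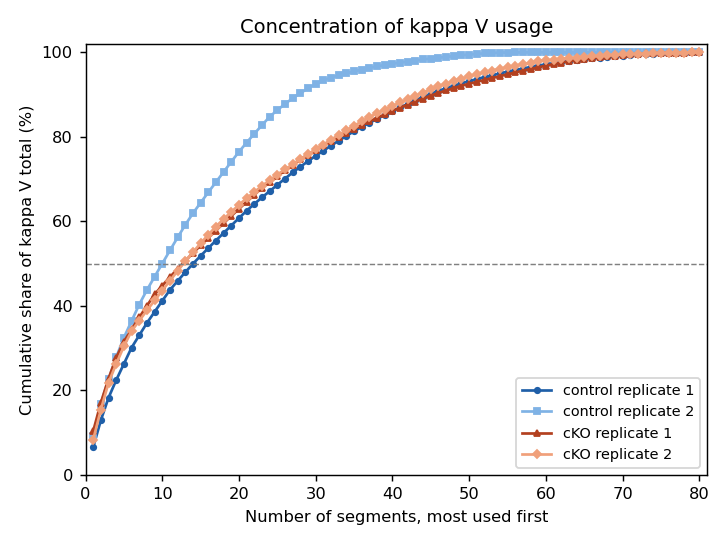
Cumulative share of the kappa V total (%) against the number of segments, most used first, 1 line per library; the dashed line marks 50%. Control replicate 2 reaches 50% with 10 segments and the other libraries with 13 to 15.

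Which segments were used most differed between mice. Of 80 segments, 22 were among the 10 most used in at least 1 library and 1 in all 4. The part of usage that 2 libraries had in common (the summed smaller share over segments) was 75.4% for control replicate 1 with cKO replicate 1 and 66.3% for the 2 cKO libraries. It was 58.6% for the 2 control libraries and 55.1% to 56.3% for control replicate 2 with the cKO libraries. Spearman correlations of the shares over the 80 segments, which share a library total, ran from 0.40 (control replicate 2 with cKO replicate 2) to 0.76 (control replicate 1 with cKO replicate 1). The closest pair thus came from different groups.

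Some segments were prominent in a single library. Igkv4-70 made up 0.842% in cKO replicate 1 and on average 0.0948% in the other libraries, and Igkv4-80 made up 0.792% against 0.126%. In cKO replicate 2, Igkv4-58 made up 1.66% against 0.179% elsewhere and Igkv4-63 0.859% against 0.114%. In control replicate 2, Igkv3-7 made up 3.07% against 0.671% and Igkv4-57-1 3.12% against 0.691%. In control replicate 1 the most uneven segments were Igkv3-2 (1.73% against 0.496%) and Igkv14-126 (1.29% against 0.461%).

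Along the locus, usage was spread over all parts. The members were placed in 4 stretches of 20 by gene order in GENCODE M21, from the end farthest from Igkc. The first stretch, Igkv2-137 to Igkv14-100, held 32.6% and 26.03% in the control and 28.4% and 24.4% in the cKO libraries, and the groups overlapped. The stretch nearest to Igkc, Igkv8-28 to Igkv3-1, which contains 7 of the 8 family 6 members, held 29.0% and 27.6% in control and 35.5% and 32.7% in cKO. The 50 members in the orientation opposite to Igkc held 52.8% and 60.8% in control and 59.7% and 64.3% in cKO, which overlapped, and the 30 in the same orientation held the rest.

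Genes of cells that express kappa chains were compared with the segments and, apart from them, genes of T and NK cells. No gene of the plasma cell list passed the test (0 of 12, where 0.0723% of all tested genes passed in either direction). In 6 of the 12 both cKO libraries lay above both control libraries and in 1 below, against 19.2% and 19.5% of all tested genes. The list summed to 33471 and 19929 normalized counts in control and 31756 and 37946 in cKO, so the groups overlapped. The largest parts of each sum came from Jchain, Txndc5 and Xbp1. Txndc5 (10038 and 5423 against 7456 and 8886) and Xbp1 (8188 and 4793 against 5375 and 6575) also overlapped. Jchain, which joins secreted IgA and IgM, did not, with 10558 and 5417 against 14444 and 17512. Slamf7 had 131 and 146 against 370 and 287, and Sdc1, the plasma cell surface marker CD138, had 556 and 514 against 832 and 758. Eaf2, Tnfrsf17 and Derl3 were the others higher in both cKO libraries. Without control replicate 2 the log2 fold changes of Jchain, Slamf7 and Sdc1 were 0.59, 1.31 and 0.51, against 1.07, 1.23 and 0.57 with it. Those of Mzb1 and Txndc5 were then below 0 (-0.08 and -0.30). Tnfrsf13b was the gene lower in both cKO libraries (3028 and 3011 against 2392 and 2854). Xbp1 and Fkbp11 also had log2 fold changes below 0 (-0.08 and -0.07), and the other 9 were above. Of 14 mature B cell genes, 12 had rows, 0 passed, and 5 had both cKO libraries above both control libraries and 0 below. Their sums overlapped (7639 and 6591 against 7085 and 7126), with most of each sum from Cd37 (5742 and 4784 against 4553 and 4861). Ms4a1 and Cr2 had no row. Cd22, an inhibitory receptor of B cells, had 184 and 235 against 524 and 364. Its log2 fold change was 1.07, and 1.25 without control replicate 2. Cd37, Cd79b, Bank1 and Fcer2a had log2 fold changes below 0 (-0.44 to -0.05), and the other 8 were above. Of 11 genes of pro-B and pre-B cells, 10 had rows and 0 passed, and 7 had both cKO libraries above both control libraries and 1 below, with sums of 14195 and 11863 against 22861 and 15433. Most of each sum came from Cd93 (10270 and 7050 against 14136 and 10572). Without control replicate 2 the log2 fold change of Cd93 was 0.25 against 0.52 with it, and that of Rag2 was 1.80 against 1.37. No plasma cell or mature B cell gene with a row was at 0 in any library, and of the pro-B and pre-B genes Igll1 was. Of 10 T and NK cell genes, 9 had both cKO libraries above both control libraries, against 19.2% of all tested genes, and 0 passed. Their sums were 9816 and 7134 against 12096 and 11796. Nkg7 was the largest part of each sum (8474 and 4671 against 4975 and 6616), and its groups overlapped. Klrb1c, Il2rb and Skap1, with the smallest p, had log2 fold changes of 2.33, 1.60 and 1.98. Without control replicate 2 these were 2.42, 1.93 and 2.32, and that of Nkg7 was -0.56. The part of each cell type in the kappa differences was not tested.

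Genes of light chain rearrangement were also compared. Of 25 genes for V(D)J recombination and opening of the light chain loci, 0 passed, against 0.0723% of all tested genes in either direction. At that share, 0 of 25 says little about the machinery. Of the 25, 18 had log2 fold changes above 0, against 50.8% of all tested genes, and the median was 0.17. In 7 both cKO libraries lay above both control libraries and in 2 below, against 19.2% and 19.5% of all tested genes. The 3 with the smallest p are given here. Ikzf3, which encodes the B lineage transcription factor Aiolos, had 148 and 93.3 normalized counts in control and 800 and 385 in cKO. Irf4, a transcription factor of pre-B and plasma cells, had 229 and 155 against 560 and 358. Spib, a transcription factor of B lineage cells, had 477 and 447 against 1094 and 572. In these 3 genes the cKO libraries lay above the control libraries, without passing. Their log2 fold changes were 2.23, 1.25 and 0.78, and 1.90, 0.97 and 0.73 without control replicate 2. Some smaller differences changed sign without it, such as Pou2af1 (0.31 with it and -0.11 without).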

How the data were processed

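RNA-seq values for 2 control and 2 cKO mice were used, 1 library per mouse. The authors deposited, for each gene, a normalized signal: reads scaled by 1 size factor per library. The submitters' processing notes list mm39, DESeq2, featureCounts, SAMtools, STAR (2.7.9a) and Trim Galore (0.6.7). Settings, annotation and strand were not given in the sources used here. Columns headed as wild type were matched to the control samples through their numbers. All values were whole multiples of 1 read (100%, within 0.1 read), so reads were recovered; the size factors were 0.857 to 1.25. The smallest sum of reads of a gene over the libraries was 41, so lower genes had been left out.

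In R 4.3.3, limma 3.58.1 was fitted to log2(normalized count + 1) of the 16598 genes whose mean reached 10, two-sided, empirical Bayes with a trend, Benjamini-Hochberg adjustment over all of them and a threshold of 0.05. edgeR 4.0.16 and DESeq2 1.42.0 were run on the recovered reads as alternatives. Single values per library were compared by exact permutation. The code was tested on simulated data. Litters and days of collection were not given in the sources used here.

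Named segments were the 10 with the highest mean, any that passed, the 5 highest and 5 lowest fold changes with a mean of at least 50, the 2 most uneven per library and those next to the minimum. Lists were named by up to 3 genes with the smallest p. The members and lists were chosen with earlier results of these data known. Promoter sequences were not used here.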

Additional observations from a re-analysis of the deposited data

How the results depend on the processing

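The number of kappa V segments that passed was 1 in the reported test and also with pseudocounts of 0.5 and 10, no filter, TMM rescaling, robust empirical Bayes and edgeR. It was 0 with a mean of at least 50, quantile normalization or no variance trend, and 6 with DESeq2; leaving out 1 library at a time gave 0 to 44, the former when control replicate 2 and the latter when control replicate 1 was omitted. The cause was not tested. The log2 ratio of the kappa V total (1.51) stayed above 0, with leave-one-out values of 0.77 to 3.09, and that per Igkc (0.28) had leave-one-out values of 0.0059 to 0.61. The difference in the inverse Simpson index (-0.06) changed sign with Shannon entropy (4.76), with kappa V reads thinned to equal number (0.084) and without Igkv6-15 (3.21), and had leave-one-out values of -5.77 to 5.65. The family 6 difference (8.98 percentage points) was 6.11 without Igkv6-15, 4.26 without Igkv6-23 and 1.395 without both, choices added after seeing the data, with leave-one-out values of 7.44 to 10.5.

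The sources used here state no pairing of mice by replicate number, and deviations of same-numbered libraries correlated at -0.07 over genes. With so few libraries per group this value cannot show whether same-numbered mice shared a litter or day. With the replicate number as a block, 1 segment passed (Igkv6-15), the log2 ratio of the kappa V total was 1.93 and that per Igkc 0.30, the index difference -0.06 and the family 6 difference 8.98.

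Of 403 log2 fold changes of 27 named segments under alternatives, 363 kept their direction and side of the threshold, 4 lost a call (Igkv6-15), 17 gained one, 16 of them without control replicate 1, and 19 changed sign, none of them called. Leave-one-out values that crossed 0 ran from -0.12 to 6.995 for Igkv1-110, -1.48 to 1.04 for Igkv3-7, -1.28 to 1.77 for Igkv6-20, -0.41 to 0.92 for Igkv5-43, -0.73 to 1.54 for Igkv1-135, -1.13 to 2.00 for Igkv14-100, -0.92 to 4.01 for Igkv3-2, -0.62 to 3.27 for Igkv14-126, -4.58 to 0.86 for Igkv4-51 and -0.63 to 3.35 for Igkv9-129. edgeR and DESeq2 gave 0.26 and 0.24 for Igkv3-7 and -0.13 and -0.13 for Igkv6-20. Precision is limited by 2 mice per group and by the 3976 kappa V reads of control replicate 2.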

Other observations

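Light chains of the lambda locus were lower in level than kappa in every library. The lambda constant genes Iglc1, Iglc2 and Iglc3 together had 2667 and 1468 normalized counts in control replicates 1 and 2 and 2113 and 4370 in cKO replicates 1 and 2, so the groups overlapped. Igkc exceeded that sum 11.6-fold and 6.48-fold in the control libraries and 23.4-fold and 13.1-fold in the cKO libraries, in reads not corrected for length. Of the 6 lambda genes 0 passed, and both cKO libraries lay above both control libraries in 1 of them, against 19.2% of all tested genes.

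Among the 8 heavy chain constant genes, 0 passed, and in 6 both cKO libraries lay above both control libraries, against 19.2% of all tested genes. Ighg2c, which encodes a constant region of IgG, had 5594 and 1081 normalized counts in control and 12557 and 12520 in cKO. Igha, the constant region of IgA, had 38583 and 17225 against 49058 and 56323. Without control replicate 2 their log2 fold changes were 1.16 and 0.45, against 2.35 (SE 0.64) and 1.03 (SE 0.37) with all 4 libraries.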
